A study of Mus musculus with 2 samples.

Results

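The miR-26 genes are Mir26a-1, Mir26a-2 and Mir26b, 3 of the 2202 miRNA genes in the count tables, and were taken by their symbols in the GENCODE M21 mouse annotation. They were measured by small RNA sequencing in the heart of 36-day-old female mice of the strain B6CASTF1/J, the F1 of C57BL/6 and CAST parents, for which no treatment is given. The age is that of the age field and the source name, while a free-text label writes months in place of days. There was 1 group of 2 libraries, each from the heart of its own animal, called replicate 1 and replicate 2 here. The labels give both animals 1 donor code and no treated or control group. That the animals are separate rests on the labels alone. The data therefore show how much of each miR-26 gene was counted in this tissue and how far these 2 hearts differed.

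A miRNA is cut from the arms of a hairpin transcript, and its seed, the bases 2 to 8 of the mature strand, pairs with target mRNAs. Each miR-26 hairpin lies inside a gene of the Ctdsp family, whose members encode small phosphatases that act on the C-terminal domain of RNA polymerase II and on the retinoblastoma protein. miR-26 is known to repress the histone methyltransferase gene Ezh2 and cyclins and kinases of the G1/S step of the cell cycle, and, in the mouse heart, the potassium channel gene Kcnj2.

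The mature sequences show what the 3 genes have in common. They are given 5′ to 3′ from the RefSeq annotation of GRCm38.p6, which had an entry for all 3 genes, with the seed in capitals.
miR-26a-5p, from both Mir26a-1 and Mir26a-2: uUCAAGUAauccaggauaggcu
miR-26b-5p, from Mir26b: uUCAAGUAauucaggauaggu
miR-26a-1-3p, from Mir26a-1: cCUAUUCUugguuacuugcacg
miR-26a-2-3p, from Mir26a-2: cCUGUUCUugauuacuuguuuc
miR-26b-3p, from Mir26b: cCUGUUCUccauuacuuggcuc
The 5p strands share 1 seed, which among the 1738 mature entries of the RefSeq table belonged to miR-26a-5p and miR-26b-5p only. With positions counted from the 5′ end, miR-26b-5p differs from miR-26a-5p by C11U and C21U, both outside the seed. The 3p strands are less alike. miR-26a-2-3p and miR-26b-3p share a seed with each other and with miR-6932-3p and miR-7039-3p, while the seed of miR-26a-1-3p differs from theirs by A4G and was found in no other entry.

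The hairpins show where a read can be told apart. Capitals mark the longest run that Mir26a-1 and Mir26a-2 have in common and, in Mir26b, the 5p mature strand.
Mir26a-1: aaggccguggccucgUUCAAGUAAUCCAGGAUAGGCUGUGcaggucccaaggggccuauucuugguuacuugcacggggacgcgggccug
Mir26a-2: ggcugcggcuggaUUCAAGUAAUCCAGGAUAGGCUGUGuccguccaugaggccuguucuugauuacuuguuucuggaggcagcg
Mir26b: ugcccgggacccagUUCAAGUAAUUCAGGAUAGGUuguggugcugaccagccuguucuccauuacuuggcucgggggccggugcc
The common run of the Mir26a hairpins is 25 nt long and holds the whole of miR-26a-5p. Over the full hairpins the identity was 72.5% between Mir26a-1 and Mir26a-2, 68.8% between Mir26a-1 and Mir26b and 67.4% between Mir26a-2 and Mir26b. The longest run shared with Mir26b was 11 nt for Mir26a-1 and 10 nt for Mir26a-2.

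This decides what the count tables can hold, because multi-mapped reads have a separate row and add to no gene's count. Of the 18-nt windows of the Mir26a-1 hairpin, 65 of 73 (89.0%) were in no other of the 2202 annotated hairpins, on either strand. For Mir26a-2 it was 59 of 67 (88.1%). The 8 remaining windows of each were found in the other Mir26a hairpin alone, and all start in miR-26a-5p. For Mir26b, 68 of 68 windows were in no other hairpin, as for 1023 of all 2202 hairpins (46.5%). A hairpin annotated at the same place on the opposite strand counts here as another one. A full-length read of miR-26a-5p thus fits at least 2 places, so the counts of Mir26a-1 and Mir26a-2 do not give the level of miR-26a-5p. The tables do not split a gene's counts by arm. Only annotated hairpins were searched, not the whole genome, and only for exact matches. How many mismatches the mapping allowed is not given in the sources used here, so reads of miR-26b-5p, which differs from miR-26a-5p by the 2 bases above, may have been lost from Mir26b or joined by reads of miR-26a-5p.

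**Figure D1:**
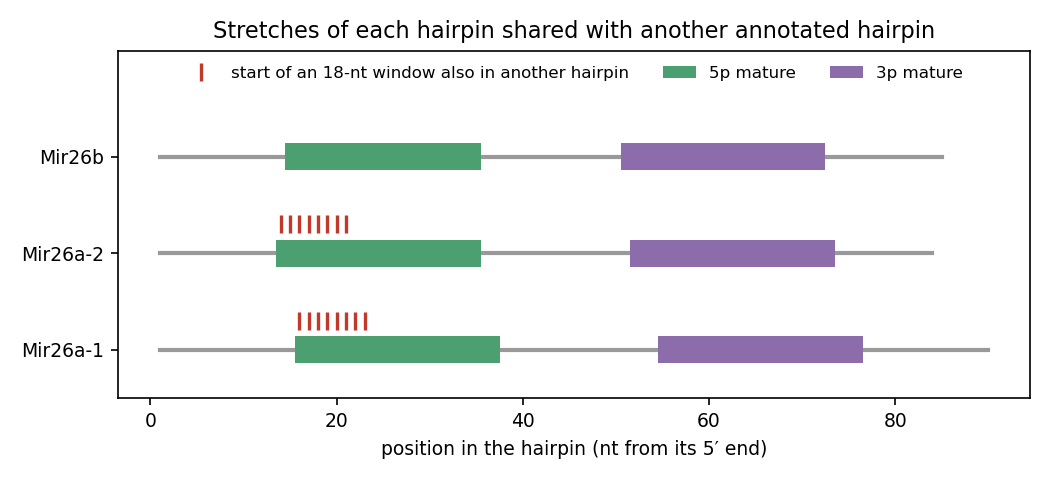
Each grey line is 1 hairpin, drawn in nt from its 5′ end, with the 5p (green) and 3p (purple) mature strands. Red ticks mark the starts of 18-nt windows that another annotated hairpin also holds: 8 in Mir26a-1, 8 in Mir26a-2 and none in Mir26b.

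The 3 genes also share their place in the host. Mir26b (ENSMUSG00000065468.1; mm10, chromosome 1, 74394310 to 74394394, plus strand) lies in intron 4 of the 6 introns of Ctdsp1, an intron of 564 nt. Mir26a-2 (ENSMUSG00000065430.1; chromosome 10, 126995530 to 126995613, plus strand) lies in intron 5 of 7 of Ctdsp2, an intron of 1946 nt. Mir26a-1 (ENSMUSG00000065513.1; chromosome 9, 119031796 to 119031885, plus strand) lies in intron 5 of 7 of Ctdspl, an intron of 3283 nt. In the longest coding transcript of each host with a CCDS entry, the hairpin was on the strand of the host and 2 introns followed its own.

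Distances to the exons differed. Mir26b was 234 nt from the exon before it and 245 nt from the one after it, Mir26a-2 was 1621 nt and 241 nt away, and Mir26a-1 was 1543 nt and 1650 nt away. From the start of the host gene, the distance was 2801 nt for Mir26b, 16813 nt for Mir26a-2 and 105343 nt for Mir26a-1. The transcripts Ctdsp2-201 and Ctdsp2-203 start at position 126995613, so 1 nt of their first exon, the last base of the Mir26a-2 hairpin, overlaps that hairpin. Ctdspl2, the related gene on another chromosome, holds 0 annotated miRNA genes. The host mRNAs were not measured in these libraries.

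None of the 3 is in a dense cluster. The nearest other miRNA gene was 1032366 nt away from Mir26a-1 and 187690 nt away from Mir26b. Only Mir26a-2 had 1 within 10000 nt, Mir546, at 2827 nt in Ctdsp2. Mir546, named after its values were seen, had 1 count in replicate 1 and 0 in replicate 2, both under the 3 counts that a count of 0 allows.

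**Figure D2:**
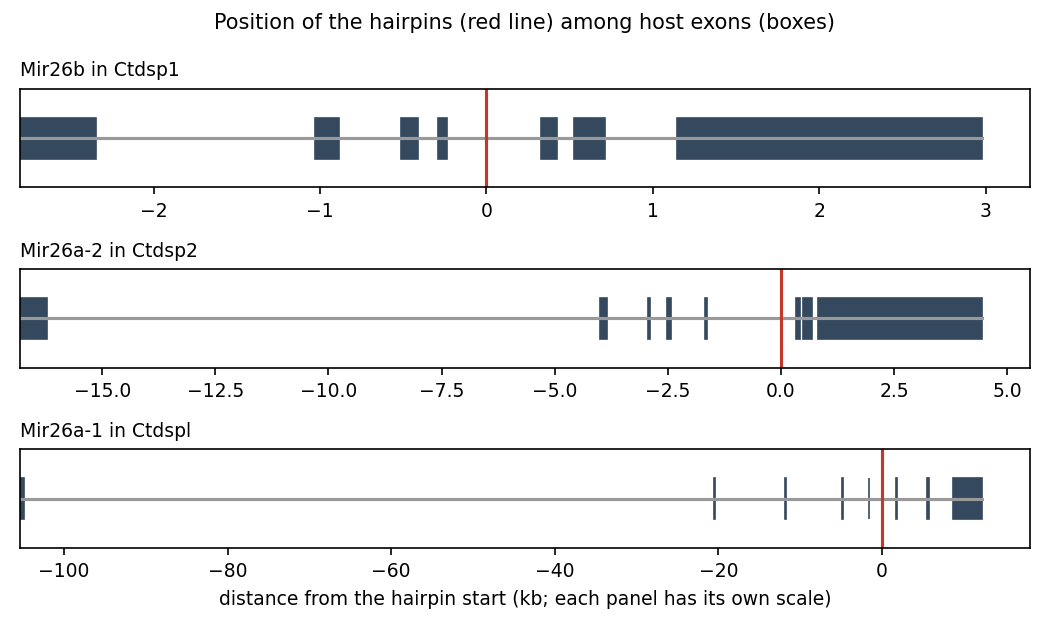
Each panel shows the exons (boxes) of 1 host transcript along the distance from the hairpin start in kb, on a scale of its own, with the hairpin as a red line. In all 3 hosts, 3 exons follow the hairpin.

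The libraries held 2074961 sense-strand counts on miRNA genes in replicate 1 and 1766135 in replicate 2. These totals are the library sizes behind CPM, counts per 1000000. A further 42.0% and 39.8% of all reads mapped to several places. The heart muscle markers Mir208a and Mir499, which lie in myosin genes, stood at 4439 ± 891 and 2844 ± 892 CPM (SD, n = 2), and Mir208b at 139 ± 25.7 CPM. Of the neuronal markers, the 3 Mir124a genes, Mir9-1 and Mir9-2 had no count. For Mir9-1, 0 of 72 windows were in no other hairpin, but this alone does not keep a gene from being counted. Mirlet7f-1, also with 0 of 72, had 442 counts in replicate 1 and 471 in replicate 2. The Mir9 copies share 2 mature sequences and have 0 of their own. A full-length read of a Mir9 mature strand thus fits several places and adds to no gene. The Mir9 counts therefore do not show that these miRNAs were absent. Whether the same holds for the Mir124a genes was not tested. The red cell marker Mir451a stood at 41391 CPM in replicate 1, against 5739 CPM in replicate 2. Mir144 had 3406 and 934 CPM, while the third red cell marker, Mir486, had 1092 and 917 CPM. The vessel wall markers had 97017 and 65811 CPM for Mir126a, 41989 and 42366 CPM for Mir143, and 1129 and 1866 CPM for Mir145a. Leukocyte markers did not move together, with 500 and 219 CPM for Mir142 against 971 and 1955 CPM for Mir150 and 34.7 and 82.7 CPM for Mir223. The liver marker Mir122 had 57.8 and 31.7 CPM, and the remaining neuronal marker, Mir9-3, had 2 counts in replicate 1 and 1 in replicate 2. In whole tissue, fewer cells of a type and less RNA per cell cannot be told apart.

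Mir26b was among the miRNA genes with the most assigned reads in both hearts. In replicate 1 it had 33848 counts, or 16313 CPM, with an exact 95% interval of 16141 to 16486 CPM. In replicate 2 it had 62167 counts, or 35199 CPM, with an interval of 34928 to 35472 CPM. That was 1.63% and 3.52% of the counts on miRNA genes, with a mean of 25756 ± 13355 CPM (SD, n = 2). It ranked 12 by mean CPM, 14 in replicate 1 and 12 in replicate 2, and 99.5% of measured genes lay below it. Of the 2202 measured genes, 1574 had no count in either library. Multi-mapped reads, 42.0% of all reads in replicate 1 and 39.8% in replicate 2, add to no gene. The ranks are thus an order of assigned reads and not of the mature miRNAs. A small RNA read covers a short molecule and not a piece of a long one, so levels of different genes are set side by side without dividing by length. Reads copied by PCR are not separate molecules, so these are levels of reads. With counts first divided per 100 nt of hairpin, Mir26b stood at 14677 per 1000000 in replicate 1 and 31266 in replicate 2 and ranked 13.

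Its place in the order is not sharp. Mir139, 1 rank above, had 21091 CPM in replicate 1 and 39853 CPM in replicate 2. Mir451a, 1 rank below, had 41391 and 5739 CPM. The values of both overlap those of Mir26b, while Mir143, 2 ranks above, with 41989 and 42366 CPM, lay above both values of Mir26b.

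The Mir26a genes were counted at a much lower level. Mir26a-2 had 45 counts, 21.7 CPM (interval 15.8 to 29.0), in replicate 1 and 102 counts, 57.8 CPM (47.1 to 70.1), in replicate 2. Its mean was 39.7 ± 25.5 CPM (SD, n = 2), at rank 189. Mir26a-1 had 5 counts, 2.41 CPM (0.782 to 5.62), in replicate 1 and 43 counts, 24.3 CPM (17.6 to 32.8), in replicate 2. Its mean was 13.4 ± 15.5 CPM at rank 245, and its value in replicate 1 was close to the 1.45 CPM that a count of 0 allows there. Both Mir26a genes reached 2 CPM in both libraries, and for Mir26a-1 the SD between the hearts was larger than the mean. Of the 12 genes within 2 ranks of the 3 members, 11 had values that overlapped those of the member.

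Mir26b thus held nearly all counts assigned to the family. In replicate 1 its share was 99.852%, with an exact 95% interval of 99.806 to 99.891%, and in replicate 2 it was 99.767%, with 99.726 to 99.804%. Within a library its count was 752 times that of Mir26a-2 in replicate 1 (562 to 1031) and 609 times in replicate 2 (502 to 748). It was 6770 times that of Mir26a-1 in replicate 1 (2901 to 20850) and 1446 times in replicate 2 (1073 to 1998). Since full-length miR-26a-5p reads cannot be placed at 1 gene, and the mismatches allowed between miR-26a-5p and miR-26b-5p are unknown, these ratios compare counted reads and not the mature miRNAs. The count of Mir26a-2 was 9.0 times that of Mir26a-1 in replicate 1 (3.58 to 29.1) and 2.37 times in replicate 2 (1.65 to 3.47). The exact interval of the first ratio over the second, 3.77 (1.37 to 13.0), excludes 1, and rests on the 5 counts of Mir26a-1 in replicate 1. Like the other intervals here, it covers counting error only and not the spread between libraries. For Mir26b over Mir26a-1, which rests on the same 5 counts, the quotient was 4.68 (1.86 to 15.1), and for Mir26b over Mir26a-2 it was 1.23 (0.861 to 1.79). On the opposite strand all 3 genes had 0 counts in both libraries, and their counts without regard to strand were the same as on the sense strand.

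**Figure D3:**
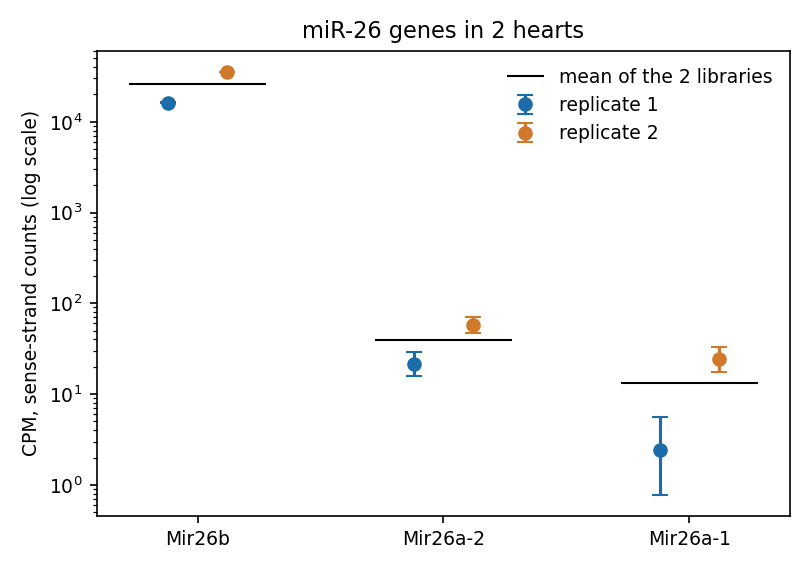
Points are CPM on a log axis in replicate 1 (blue) and replicate 2 (orange), bars the exact 95% intervals of counting error, and black lines the mean of the 2 libraries. Mir26b lies above 10000 CPM, both Mir26a genes below 100 CPM, and the replicate 1 point is the lower one for all 3 genes.

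All 3 miR-26 genes were lower in replicate 1 than in replicate 2. For each of 359 miRNA genes with 10 or more counts, a two-sided exact binomial test asked whether the counts divided between the libraries as their TMM-scaled sizes would give (TMM is edgeR's scaling by a trimmed mean of log ratios). The p-values were adjusted by Benjamini-Hochberg over all 359 genes and called under 0.05. The log2 ratio of replicate 1 over replicate 2 was -0.94 for Mir26b (exact interval -0.96 to -0.92, adjusted binomial p under 1e-300), which was 1.92 times as high in replicate 2. For Mir26a-2 it was -1.23 (-1.78 to -0.72, exact binomial test, adjusted p = 1.92e-06), or 2.35 times as high in replicate 2. For Mir26a-1 it was -3.05 (-4.86 to -1.83, exact binomial test, adjusted p = 1.87e-08), or 8.26 times as high in replicate 2. All 3 of 3 members passed, in a comparison where 44.3% of tested genes did and 20.1% were lower in replicate 1. The median log2 ratio of all tested genes was 0.01. Of the genes that passed, 87 were higher in replicate 1 and 72 lower, but 67 and 103 with library size alone, and the 3 miR-26 genes passed as lower under each scaling.

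Counting error alone is allowed for here, between 2 libraries of 1 condition, and PCR reads without molecular identifiers are not independent molecules. When the spread between the libraries was allowed for, with edgeR's exact test at the common dispersion (biological coefficient of variation 40.5%), 0 of 3 members passed (1 of 3 at an unadjusted p under 0.05, Mir26a-1). Their adjusted p was 0.174 for Mir26a-1 and 1 for Mir26a-2 and Mir26b, and 7 of 359 genes (1.95%) passed. The dispersion came from these same 2 libraries around 1 mean, so the differences under test are part of the spread allowed for. Failing edgeR's exact test here therefore does not show that a gene was alike in both hearts. A log2 ratio at least as far from 0 as that of Mir26b was found for 83 of 359 tested genes, Mir26b included, and for 2 of the 19 genes at a mean of 10000 CPM or more, the other being Mir451a. Among these 19 genes Mir26b had the lowest ratio, an order that no scaling can change, and Mir451a, at 3.02, the highest. The heart muscle markers Mir208a (-0.24) and Mir499 (-0.48) were also lower in replicate 1 in the binomial test, and Mir208b, at -0.21, did not pass. The part of red cell or heart muscle RNA in the ratios of the miR-26 genes was not tested. With library size alone as the scaling, the ratios were -1.11 for Mir26b, -1.40 for Mir26a-2 and -3.22 for Mir26a-1. With Mir451a, Mir144 and Mir486 also left out of that library size they were -1.05, -1.35 and -3.16 in the same order.

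**Figure D4:**
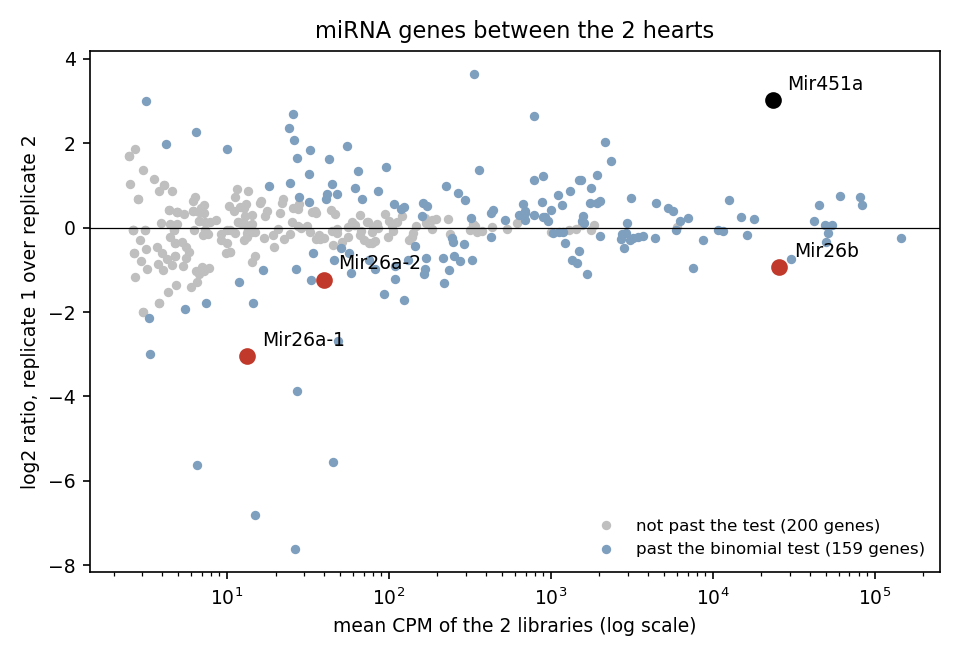
Each point is 1 of 359 tested genes, with its mean CPM (log axis) against its log2 ratio of replicate 1 over replicate 2; blue points passed the binomial test. The miR-26 genes (red) lie at -0.94, -1.23 and -3.05, all below 0, and Mir451a (black) at 3.02.

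The genes nearest to a member over the 2 libraries, by Euclidean distance of log2(CPM + 1) among 373 other genes at a mean of 2 CPM or more, were as follows. Mir26b was nearest to Mir139, at a distance of 0.41, then Mir30d (0.97) and Mir149 (0.99). Mir26a-2 was nearest to Mir487b (0.37), Mir543 (0.46) and Mir434 (0.54). Mir487b had 17.8 CPM in replicate 1 and 48.1 CPM in replicate 2. Mir26a-1 was nearest to Mir218-2 (0.99), Mir92b (0.99) and Mir205 (1.07). Of these, Mir218-2 had 2.89 CPM in replicate 1 and 11.9 CPM in replicate 2. Distances near 1 are not close matches: in replicate 2, Mir30d had 18179 CPM and Mir149 17884 CPM, against 35199 CPM for Mir26b, and Mir205 had 51.5 CPM, against 24.3 CPM for Mir26a-1. The measure rests on 2 libraries.

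Other miRNA genes known to repress Ezh2, as miR-26a does, were in part lower in replicate 1. Of 5 genes, 3 were lower there in the exact binomial test, against 20.1% of all tested genes, and none was higher, with a median log2 ratio of -0.76. Mir214 had 926 CPM in replicate 1 and 1765 CPM in replicate 2. Mir101b had 90.1 and 172 CPM, and Mir101a 50.6 and 113 CPM. Mir138-1 (22.7 and 19.8 CPM) did not pass, nor did Mir138-2 (14.9 and 11.3 CPM), which was named after its values were seen. Mir138-1 and Mir138-2 are copies with 1 identical mature sequence, and by their symbols Mir101a and Mir101b belong to 1 family. The 5 genes are therefore not independent of each other. In edgeR's exact test 0 of the 5 passed, with 0 at an unadjusted p under 0.05.

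Other miRNA genes known to repress the G1/S step were mostly higher in replicate 1. Of 12 genes, 9 had enough counts to be tested, 7 were higher in replicate 1, against 24.2% of all tested genes, and 1 was lower (8 and 1 with DESeq2 size factors, 6 and 1 with library size alone). Their median log2 ratio was 1.23. Mir15b had 3435 CPM in replicate 1 and 1295 CPM in replicate 2, Mir34a 2630 and 1242 CPM, and Mir16-1 2013 and 1499 CPM. Mir195a, of the same seed family as Mir15b and Mir16-1, was lower in replicate 1, with 990 CPM there and 2383 CPM in replicate 2. Several of these genes share a locus or a seed and are not independent of each other, and 0 of the 9 passed edgeR's exact test, with 2 at an unadjusted p under 0.05.

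The Mir26a genes were then set beside other numbered gene copies, such as Mir16-1 and Mir16-2. Of 53 families of such symbols, the 39 in which the RefSeq table lists at least 1 identical mature sequence for every copy were used. They hold 82 genes. The other families, let-7a among them, were not used here, so places in the order hold within these 39. Of the 39, 35 had 2 copies. The summed level of Mir26a-1 and Mir26a-2 was 24.1 CPM in replicate 1 and 82.1 CPM in replicate 2, below 10 of the 39 families. The median family stood at 11.2 CPM, and 22 families reached 2 CPM. The families above it were led by Mirlet7f, at 5955 CPM in replicate 1 and 6667 CPM in replicate 2, then Mir92 at 2784 and 3770 CPM. Mir16 had 2248 and 1728 CPM. Of the windows of Mir16-1 and Mir16-2, 92.1% and 92.3% were in no other hairpin, beside 89.0% for Mir26a-1 and 88.1% for Mir26a-2. This share covers the whole hairpin and not the mature strand alone, and its part in the level of a family was not tested.

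The copies of a family differed in level to varying degrees. By mean CPM, Mir26a-2 stood at 2.97 times Mir26a-1, but 9.0 times in replicate 1 and 2.37 times in replicate 2. The Mir24 copies differed 1.03 times in replicate 1 and 1.14 times in replicate 2, and the Mir30c copies 2.87 and 2.53 times, so the place of the Mir26a pair beside Mir30c turns with the library. The Mirlet7f copies differed 27.0 and 24.0 times, and the Mir181b copies 115 and 223 times. The share of windows in no other hairpin was 0% for Mir24-1, 26.7% for Mir24-2, 0% for Mirlet7f-1 and 87.9% for Mirlet7f-2. For the first and second copy it was 84.7% and 83.6% in Mir30c, and 85.7% and 87.5% in Mir181b. Its part in these ratios was not tested. Between the libraries, 39 of the 82 genes were tested, 4 were higher in replicate 1, against 24.2% of all tested genes, and 8 lower, against 20.1% (8 and 8 with DESeq2 size factors, 3 and 13 with library size alone), with a median log2 ratio of -0.08. The number lower is thus near the background, and 0 of the 39 passed edgeR's exact test, with 1 at an unadjusted p under 0.05. Mir26a-1 and Mir26a-2 were 2 of the 8; without them it was 4 and 6 of 37.

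**Figure D5:**
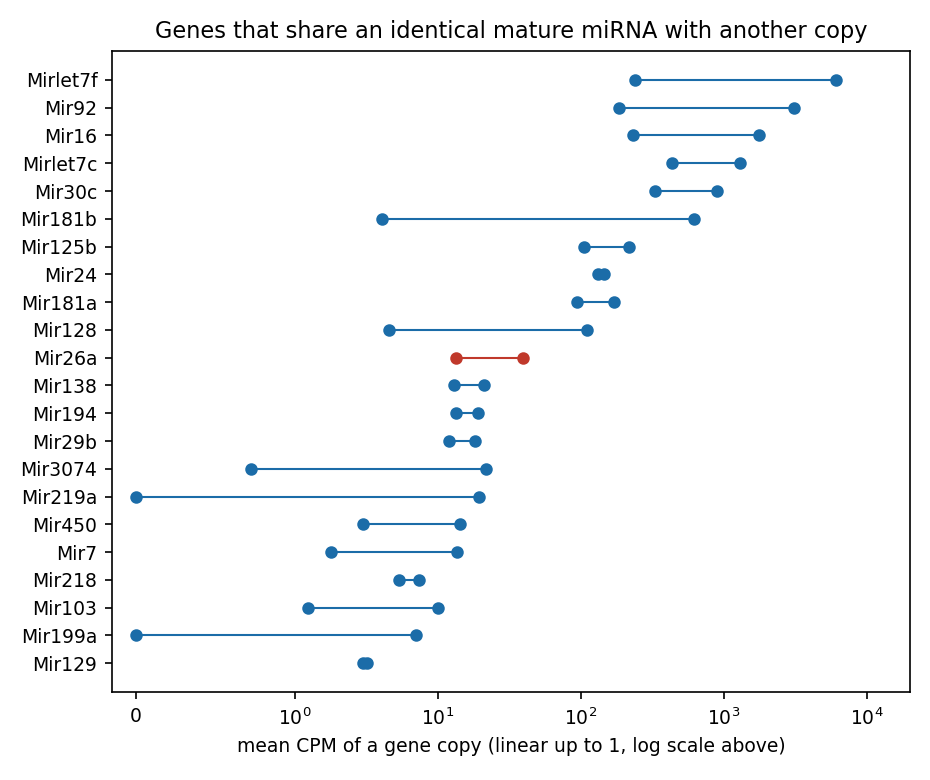
Points are the mean CPM of each gene copy, linear up to 1 and on a log axis above, for the 22 families whose copies sum to 2 CPM or more; lines join the copies of a family. The Mir26a copies (red), at 13.4 and 39.7 CPM, lie in the middle of the range.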

How the data were processed

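Small RNA libraries under 30 nt were made from total RNA, per the labels. The authors deposited raw counts of reads for each miRNA gene of GENCODE M21 (build mm10, per the deposited notes) in 3 columns: sense, antisense and strand ignored. Aligner and counter: not given in the sources used here. Sense counts were used, and the 4 rows that name no gene (63.0% of reads in replicate 1 and 64.6% in replicate 2) were left out of library sizes.

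CPM is sense counts per 1000000 over gene rows, which makes a read worth 0.482 (replicate 1) or 0.566 CPM (replicate 2). Exact intervals are Clopper-Pearson and, like the floor of 3 counts, cover counting error only. TMM factors and the common dispersion came from edgeR 4.0.16, size factors from DESeq2 1.42.0, and tests from scipy 1.17.1. The dispersion is that of both libraries around 1 mean, so it includes the differences that edgeR's exact test is set against, for the members and for each list. Log2 ratios and folds used a prior count of 0.5, and their intervals none. No comparison of conditions exists, so the binomial test replaced a replicated count model. A chi-square test over 359 genes gave 150266 with 358 degrees of freedom, more than sampling noise gives, so the tables are not 1 library deposited again; this does not show that the animals are separate, which rests on the labels. Ids and hairpins matched GENCODE M21 for 2202 of 2202 rows. Functions were tested on simulated data. The alternatives were other scalings, count filters, prior counts, window lengths, strand, library sizes, counts per length, thinning of the deeper library, edgeR's exact test and each library alone.

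The members, the gene lists and the rule for named genes (members, markers, up to 4 genes of highest mean CPM per list, 3 nearest genes per member, copy families listed in full in the RefSeq table) were chosen with earlier results of these data known. Genes given by rank stand there for their place in the order.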

Additional observations from a re-analysis of the deposited data

How the results depend on the processing

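Of 91 values under alternatives that keep both libraries, 85 kept their direction and side of the threshold or, for levels, ranks and ratios, moved by less than the spread between the libraries. Some of the 85 could not have changed, such as the ratios between members without regard to strand, whose counts were the same. The lists were judged by their medians, which edgeR's exact test leaves as they were. The G1/S list thus counts as kept there, though its genes higher and lower in replicate 1 went from 7 and 1 to 0 and 0. With edgeR's exact test at the common dispersion, the log2 ratios stayed at -3.04 for Mir26a-1, -1.23 for Mir26a-2 and -0.94 for Mir26b but no longer passed, and 7 genes differed in place of 159, since this test adds the spread between libraries to counting error. With all reads in the table as library size, Mir26b stood at 9247, Mir26a-2 at 14.2 and Mir26a-1 at 4.75 CPM (0.892 CPM in replicate 1, under the 2 CPM limit), because multi-mapped and unassigned reads then count in the total. In the column without regard to strand, Mir26b ranked 10, since Mir378a (0 counts there) and Mir126a (13 and 15 counts), above it by sense counts, fell below it. The leave-one-library-out ranges were 210 to 342 for the rank of Mir26a-1 and 12 to 14 for that of Mir26b. Library size alone moved the median log2 ratio of all tested genes to -0.16 and DESeq2 size factors to 0.08. Genes higher and lower in replicate 1 then numbered 67 and 103, and 96 and 60, against 87 and 72 with TMM. Mir26a-1, with under 50 counts, has no value under that filter. No paired analysis was possible because there is 1 group. At this depth Mir26a-1 had 5 counts in replicate 1, an interval of 0.782 to 5.62 CPM.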
